A study of Mus musculus with 8 samples.

Results

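A set of 9 genes from 4 imprinted regions of the mouse genome was followed in the cerebellum of *Atm*-KO mice and *Atm*-WT littermates, out of 56691 genes in the deposited count table. The genes were picked by name: *Meg3*, *Rian*, *Mirg*, *Rtl1*, *Dlk1* and *Dio3* of the *Dlk1-Dio3* region on chromosome 12, *Snhg14* and *Kcnq1ot1* on chromosome 7, and *Peg13* on chromosome 15. They were chosen on values of the *Atm*-KO against *Atm*-WT contrast, so that contrast is described for them without a test. Of the 9, 6 are long non-coding RNAs (lncRNAs) and 3 are protein-coding genes.

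The study asked how loss of ATM, a protein kinase mutated in ataxia-telangiectasia, changes metabolism and the cerebellum. Cerebellar tissue was collected at 6 months of age from 4 *Atm*-KO mice (*Atm*-/-, line B6;129S4-Atmtm1Bal/J) and 4 *Atm*-WT mice (*Atm*+/+) bred from heterozygous parents. No treatment is named for these libraries, and each came from 1 mouse. The mouse labels end in M except for KO 7F, and the labels do not say whether this letter gives the sex. Its part in the values was not tested. The deletion was carried in the germline and so was not limited to 1 cell type. In bulk tissue, fewer cells of a type and less RNA per cell cannot be told apart.

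In an imprinted gene, the copy inherited from 1 parent is active and the other is silent. In the *Dlk1-Dio3* region the maternal copy makes *Meg3*, *Rian* and *Mirg*, which lie head to tail on the plus strand and carry many small RNA genes in or between them, while the paternal copy makes the proteins *Dlk1*, *Rtl1* and *Dio3*. *Snhg14* and *Kcnq1ot1* are very long RNAs made from the paternal copy that stay in the nucleus and run antisense to *Ube3a* and to *Kcnq1*, each of which is made mainly from the maternal copy in the tissues where it is imprinted. *Peg13* is a paternal RNA made inside an intron of *Trappc9*, next to the maternal gene *Kcnk9*. The brain is a tissue in which most of these RNAs are known to be abundant.

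Libraries held 65967130 to 88030300 counts, so that 1 count was worth 0.0117 to 0.0148 CPM, the counts scaled to library size. *Atm* itself had 59.0 to 80.0 CPM in WT and 41.1 to 51.1 CPM in KO mice, with no overlap, as a count over the whole gene that does not single out the deleted part. A pair of libraries stood apart. KO 12M held 4.32 CPM of *Slc17a6*, the glutamate transporter of deep nuclear and brainstem neurons, against 73.6 CPM or more in every other library, and WT 32M had the lowest share of counts on genes of the GENCODE class TEC (loci with transcript evidence that awaits experimental follow-up). The genotypes overlapped in the summed CPM of all 6 lists of cell type markers, which held Purkinje cell, granule cell, deep nuclear, choroid plexus, meningeal and oligodendrocyte genes. Within these lists all 7 choroid plexus genes (median log2 fold change -0.50) and 7 of 8 oligodendrocyte genes (median -0.23) were lower in KO in the fit, none passing in edgeR (3 and 4 at an unadjusted p under 0.05, against 8.48% of all genes) or DESeq2. So were 7 of 8 Purkinje cell genes (median -0.09), with 1 lower at an unadjusted p under 0.05. The myelin genes *Mobp* (409 ± 62.4 against 247 ± 80.3 CPM) and *Cnp* (317 ± 21.5 against 259 ± 34.9 CPM), named after their values were seen, did not overlap between genotypes. The same held for *Dcn* of the meningeal list (26.7 ± 1.80 against 19.3 ± 2.70 CPM) and, in the other direction, for *Grin2c* of the granule cell list (190 ± 19.4 against 255 ± 49.9 CPM), also named after their values were seen, and DESeq2 called 1 gene of each of these lists. The part of these cells in the results below was not tested.

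The start regions of 3 of the lncRNAs are shown because their levels are the subject of what follows. RefSeq windows of 250 bases before to 50 bases after the start, listed on GRCm38.p6, were found for 7 of the 9 genes (none for *Rtl1* or *Peg13*) and each was matched exactly once to GRCm39. Capitals mark the TATA box (TATAAA), the cAMP response element (TGACGTCA), the CCAAT box (CCAAT) and the core of the ZFP57 motif (TGCCGC), searched on both strands.
*Meg3*, chr12:109506629-109506928, plus strand: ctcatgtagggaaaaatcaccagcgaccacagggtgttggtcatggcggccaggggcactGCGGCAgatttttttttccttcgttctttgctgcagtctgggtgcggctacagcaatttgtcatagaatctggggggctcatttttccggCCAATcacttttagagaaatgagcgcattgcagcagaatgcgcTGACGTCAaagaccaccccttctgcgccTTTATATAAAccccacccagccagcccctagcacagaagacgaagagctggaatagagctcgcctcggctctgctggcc
*Kcnq1ot1*, chr7:142850235-142850534, minus strand: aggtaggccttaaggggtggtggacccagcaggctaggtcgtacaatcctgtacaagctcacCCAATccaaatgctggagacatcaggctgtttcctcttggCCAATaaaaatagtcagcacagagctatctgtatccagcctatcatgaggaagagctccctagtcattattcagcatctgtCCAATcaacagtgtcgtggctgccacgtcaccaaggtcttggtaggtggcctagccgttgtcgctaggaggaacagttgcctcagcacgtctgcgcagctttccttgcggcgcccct
*Snhg14*, chr7:60099876-60100175, minus strand: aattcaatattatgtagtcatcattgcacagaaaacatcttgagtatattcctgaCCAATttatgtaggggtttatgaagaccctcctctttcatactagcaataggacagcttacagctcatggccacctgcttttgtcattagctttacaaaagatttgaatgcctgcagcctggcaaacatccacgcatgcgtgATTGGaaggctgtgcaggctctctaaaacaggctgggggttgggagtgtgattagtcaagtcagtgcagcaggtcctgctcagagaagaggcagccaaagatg
The first of the 2 *Meg3* windows held all 4 motifs. Its TATA box began 25 bases before the start on the plus strand and overlapped another on the minus strand, its cAMP response element began 57 bases before it, and its CCAAT box 100 bases before it. Among 32544 distinct windows of this length, the TATA box occurred in 13.6%, the cAMP response element in 1.80%, the CCAAT box in 37.4% and the ZFP57 core in 11.7%. The *Kcnq1ot1* window held 3 CCAAT boxes and none of the other motifs, and the *Snhg14* window held 2 CCAAT boxes on opposite strands. The *Snhg14* window is listed for *Snrpn* as well and lies upstream of the *Snhg14* gene body of the annotation, where this transcription unit has further upstream starts. CpG dinucleotides numbered 13 in the *Meg3* window, 9 in the *Kcnq1ot1* window and 2 in the *Snhg14* window, against a median of 7 over all windows. These matches describe letters in the windows and not bound sites.

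Small RNA genes of the *Dlk1-Dio3* region are shown next, because 7 of them lie opposite exons of *Rtl1* and because others share a seed. The seed, bases 2 to 8 of a mature microRNA (miRNA), is the part that pairs with targets. RefSeq mature sequences were found for 61 of the 67 miRNA genes between *Dlk1* and *Dio3*, giving 113 mature miRNAs with 104 different seeds. Of these, 9 seeds were shared by 2 miRNAs each. In these pairs, capitals mark the seed.
miR-379-3p: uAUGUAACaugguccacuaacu
miR-411-3p: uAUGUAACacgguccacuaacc
miR-376b-5p: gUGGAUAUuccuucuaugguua
miR-376c-5p: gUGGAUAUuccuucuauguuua
miR-379-5p: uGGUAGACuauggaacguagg
miR-1193-5p: uGGUAGACcggugacguaca
All 13 mature miRNAs of the 7 genes opposite *Rtl1* exons had a fully complementary site in an *Rtl1* transcript, 11 of them in coding sequence. The miRNA and its *Rtl1* site, written 5′ to 3′ with the seed and the bases facing it in capitals, are given for 3 of these genes.
miR-127-3p, chr12:109559322-109559343: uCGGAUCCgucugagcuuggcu
*Rtl1* site of miR-127-3p: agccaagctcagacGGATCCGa
miR-431-5p, chr12:109556893-109556913: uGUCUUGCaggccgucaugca
*Rtl1* site of miR-431-5p: tgcatgacggcctGCAAGACa
miR-136-5p, chr12:109561765-109561786: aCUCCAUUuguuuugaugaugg
*Rtl1* site of miR-136-5p: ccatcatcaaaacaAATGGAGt
The miRNAs are on the plus strand of GRCm39 and *Rtl1* is on the minus strand. Whether counts of the 2 strands were kept apart is not stated, but in 7 overlapping pairs of small RNA genes on opposite strands of this region the plus strand gene held 1440 counts and the minus strand gene 105, so that 93.2% of the counts went to the strand from which *Meg3*, *Rian* and *Mirg* are made.

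*Meg3* (chr12:109506877-109538165, plus strand) makes a nuclear RNA expressed in neurons and had the highest mean CPM of the 9 genes. The WT libraries 2M, 7M, 13M and 32M held 644, 588, 594 and 391 CPM, and the KO libraries 1M, 7F, 11M and 12M held 1205, 788, 877 and 980 CPM. Every KO library lay above every WT library. The mean was 554 ± 112 CPM in WT and 963 ± 180 CPM in KO (SD, n = 4 mice each), and the fitted log2 fold change was 0.80 (SE 0.16), or 1.74-fold. These values rested on 33554 to 98411 counts per library.

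*Rian* (chr12:109570242-109628150), the next RNA downstream and the host of C/D box small nucleolar RNAs (snoRNAs), had a smaller difference. It held 349, 436, 401 and 396 CPM in the WT libraries in the same order and 551, 468, 498 and 470 CPM in the KO libraries. The genotypes did not overlap, with 396 ± 35.8 CPM in WT and 497 ± 38.4 CPM in KO, and the log2 fold change was 0.33 (SE 0.083). For each count of *Meg3* there were 0.542 to 1.01 counts of *Rian* in WT and 0.457 to 0.594 in KO libraries, and these ranges overlapped. WT 32M, lowest in *Meg3*, was not low in *Rian*.

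*Mirg* (chr12:109696198-109715898), the RNA farthest downstream and a host of miRNA genes, was far less abundant than these RNAs. It held 31.6, 40.8, 27.0 and 14.03 CPM in WT and 60.4, 46.1, 50.8 and 65.8 CPM in KO. Every KO library was above the WT libraries, and WT 32M was again the lowest. The mean was 28.4 ± 11.1 CPM in WT and 55.8 ± 8.96 CPM in KO, a log2 difference of 0.98 (SE 0.25).

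Of the 3 proteins made from the paternal copy, *Rtl1*, a gene derived from a retrotransposon that is needed in the placenta, was near the lower limit of measurement. It had 58, 99, 47 and 64 counts in WT and 146, 159, 113 and 92 counts in KO. In CPM the genotypes did not overlap, although the highest WT library (7M, 1.33 CPM) nearly reached the lowest KO library (12M, 1.36 CPM). The mean was 0.847 ± 0.336 CPM in WT and 1.66 ± 0.316 CPM in KO, with a log2 fold change of 0.98 (SE 0.29), and 1.27 without WT 7M. *Rtl1* lies opposite plus strand miRNA genes and part of *Rian*. In the 7 overlapping pairs above, the minus strand genes held 105 counts against 1440. The part of plus strand reads in the *Rtl1* counts was not tested. *Dlk1*, a membrane protein related to Notch ligands, did not separate the genotypes. It held 4.41, 5.40, 0.653 and 5.25 CPM in WT and 3.67, 7.85, 5.95 and 0.178 CPM in KO, with means of 3.93 ± 2.23 and 4.41 ± 3.30 CPM. The log2 fold change was 0.17 (SE 0.77), and its sign changed in 3 of 15 alternative analyses (-0.17 without WT 13M, -0.24 without KO 7F and -0.22 with limma voom), and it was 0.74 without WT 32M and KO 12M. The lowest *Dlk1* values were those of WT 13M and KO 12M, which were also the 2 libraries with 0 counts of *Dbh*, an enzyme of noradrenaline synthesis, where the others had 20 to 353. The part of such neurons in the *Dlk1* values was not tested. *Dio3*, the deiodinase that inactivates thyroid hormone, had 2, 0, 2 and 4 counts in WT and 12, 4, 5 and 4 counts in KO. It did not pass the filter on low counts, and since a count of 0 allows up to 3 counts, no fold is given.

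The RNAs of the other 3 regions did not all have the same sign of difference. *Snhg14* (chr7:58957672-59628040, minus strand), host of the *Snord115* and *Snord116* snoRNA arrays of the Prader-Willi region, held 269, 382, 350 and 264 CPM in WT and 439, 390, 442 and 438 CPM in KO. The KO libraries lay close together and all above WT, although KO 7F exceeded WT 7M by a small margin. The mean was 316 ± 59.0 CPM in WT and 427 ± 25.0 CPM in KO, with a log2 fold change of 0.43 (SE 0.12). *Kcnq1ot1* (chr7:142731402-142850327, minus strand), which silences genes near it on the paternal copy, held 116, 132, 134 and 67.9 CPM in WT and 210, 155, 164 and 218 CPM in KO. Every KO library was above WT, and WT 32M was lowest. The mean was 112 ± 30.7 CPM in WT and 187 ± 31.9 CPM in KO, a log2 difference of 0.73 (SE 0.19), and 0.47 without WT 32M and KO 12M. *Peg13* (chr15:72677449-72682173, minus strand) had the opposite sign, with 306, 294, 307 and 274 CPM in WT and 254, 272, 284 and 265 CPM in KO. The genotypes overlapped, with means of 295 ± 15.4 and 269 ± 12.7 CPM, and the log2 fold change was -0.14 (SE 0.064), or -0.09 with library size alone as scaling.

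Of the 9 genes, 8 passed the filter on low counts, and in 6 of these 8 every KO library was above every WT library. Over all 22423 genes tested this held for 6.47%, and the reverse for 5.12%. Since the genes were chosen from this contrast, nothing is read from the difference between these shares. All of the 8 except *Dlk1* kept their direction in each of the 15 alternative analyses.

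**Figure D1:**
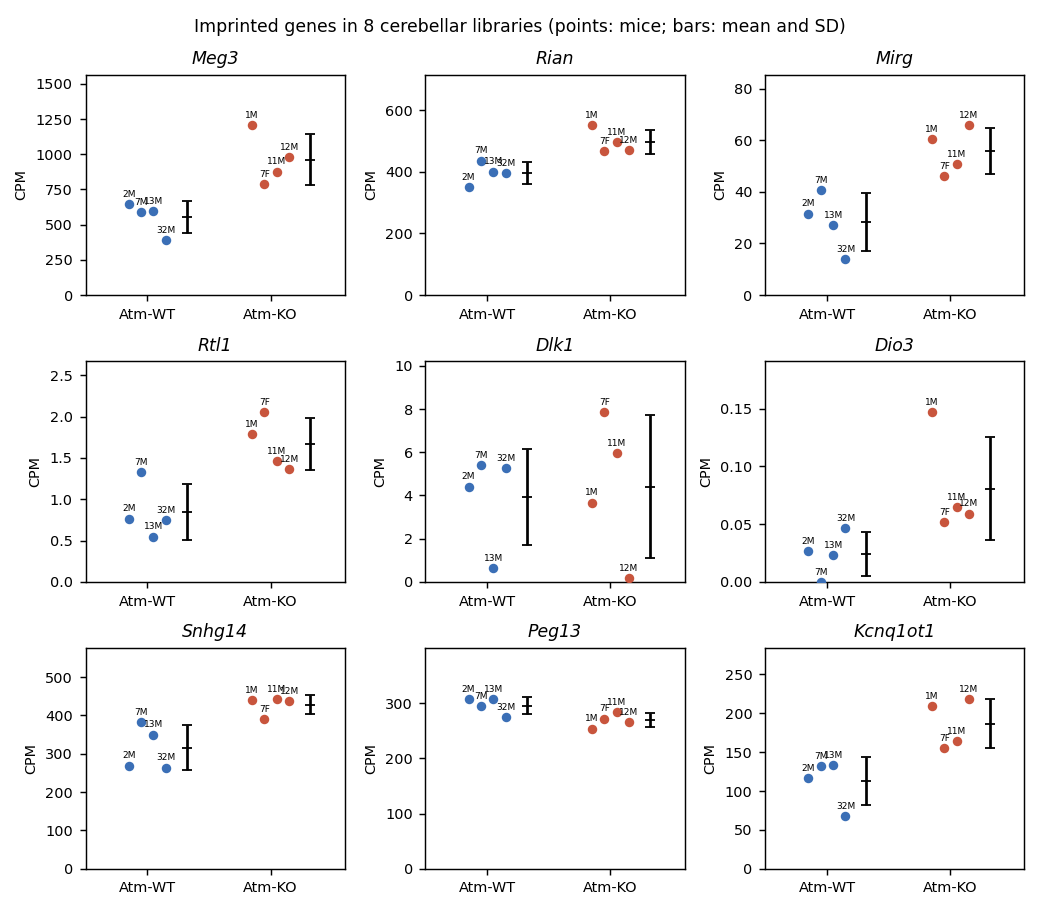
CPM of the 9 imprinted genes in each of the 4 Atm-WT (blue) and 4 Atm-KO (red) libraries, with the mouse named at each point and the mean and SD beside each group. KO lies wholly above WT for Meg3, Rian, Mirg, Rtl1, Snhg14 and Kcnq1ot1, and for Dio3 on at most 12 counts, while Dlk1 and Peg13 overlap.

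Divided by exon length, the order of the levels was different. In WT, *Peg13* was highest at 62.5 ± 3.26 CPM per kb of exon, followed by *Meg3* at 28.7 ± 5.78, *Rian* at 12.4 ± 1.12, *Snhg14* at 11.1 ± 2.07, *Mirg* at 2.94 ± 1.15, *Kcnq1ot1* at 1.20 ± 0.327, *Dlk1* at 0.651 ± 0.369, *Rtl1* at 0.124 ± 0.0494 and *Dio3* at 0.0119 ± 0.00941. The ranges of *Rian* and *Snhg14*, of *Kcnq1ot1* and *Dlk1*, and of *Dlk1* and *Rtl1* overlapped in WT. In KO the order was the same, and *Peg13* and *Meg3*, with 56.9 ± 2.69 and 49.9 ± 9.31 CPM per kb, then overlapped as well, as did *Rian* and *Snhg14* and *Dlk1* and *Rtl1*. These lengths come from a later annotation than the counts, and *Kcnq1ot1* has 93.9 kb of annotated exon in its 118.9 kb span, so levels between genes are approximate.

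The small RNA genes carried by these transcripts are separate entries of the table that were not used to choose the 9 genes, but they lie in or between the members, all but 8 minus strand miRNA genes of the *Dlk1-Dio3* region on the strand of the long RNAs there, are known as processed from such long transcripts, and are not treated as independent evidence of a difference. Their counts come from RNA fragments over the precursor positions, and levels of mature miRNAs were not measured. Of the 67 miRNA genes between *Dlk1* and *Dio3*, 55 had a count in some library, and all 55 had the higher mean CPM in KO. Of the 59 on the plus strand, 43 passed the filter on low counts, which asked for 0.128 CPM in 4 libraries. Only 23 of the 43 reached this in all 4 WT libraries, and 18 reached it in all 4 KO but not in all 4 WT libraries, so that a higher KO value was partly set by the filter. Over the 43 the fitted log2 fold change had a median of 1.08 and a range of 0.42 to 1.78, all above 0, as a description. Among 154 miRNA genes tested elsewhere in the genome under the same filter, 124 were higher in KO (80.5%), with a median of 0.67. The genotypes did not overlap for 16 of the 43 (37.2%), against 23 of the 154 (14.9%). None of the 43 passed an adjusted p of 0.05 in edgeR, where 0.00892% of all genes passed as higher and 0.00892% as lower. At an unadjusted p under 0.05, 29 of the 43 were higher, against 11.7% of all genes higher and 8.48% lower. DESeq2 called 12 of the 43 higher, against 5.05% of the genes it tested higher and 2.44% lower. Since genes that were low in WT entered through KO, these counts and those of separated genes are partly set by the filter and are not read against the shares of all genes.

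The sum over the 67 miRNA genes was 16.2, 29.0, 17.1 and 7.49 CPM in WT and 42.1, 30.1, 32.03 and 42.6 CPM in KO. Every KO library was above WT, by a narrow margin between KO 7F and WT 7M. The mean was 17.5 ± 8.84 CPM in WT and 36.7 ± 6.57 CPM in KO, and the two-sided exact permutation p was 0.0286, the smallest that 4 against 4 libraries can give. Without WT 32M and KO 12M the difference fell from 19.2 to 13.9 CPM, still with no overlap, and p was 0.1, the smallest that 3 against 3 can give. By position, 35 of the 43 lay outside the bodies of the members on their own strand (6 of these inside *Rtl1* on the opposite strand) and had a median log2 fold change of 1.09, while those between *Meg3* and *Rian* had a median of 1.08, those between *Rian* and *Mirg* 1.09 and those inside *Mirg* 1.12. The 2 tested genes inside *Rian* had a median of 0.75, where *Rian* itself had 0.33.

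All 7 miRNA genes opposite *Rtl1* exons passed the filter and their median log2 difference was 0.92, under the same limit from the filter. Their levels were low. *Mir431* held 0.179 ± 0.143 CPM in WT and 0.610 ± 0.198 CPM in KO, without overlap (log2 fold change 1.78, SE 0.58, edgeR adjusted p = 0.141). *Mir136* did not overlap either, with 0.145 ± 0.0426 CPM in WT and 0.350 ± 0.142 CPM in KO (log2 fold change 1.26, SE 0.41, edgeR adjusted p = 0.140). *Mir127*, whose mature sequence is shown above with its site, overlapped, at 0.384 ± 0.253 and 0.722 ± 0.165 CPM.

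Between *Rian* and *Mirg*, 2 further plus strand transcripts, named after their values were seen, had differences near that of *Mirg*. *B830012L14Rik*, an lncRNA, held 21.1 ± 10.8 CPM in WT and 41.3 ± 5.92 CPM in KO, and *Gm37899* held 19.5 ± 7.08 and 37.4 ± 8.10 CPM. Both overlapped between genotypes and missed the threshold (edgeR adjusted p = 0.120 and 0.104). They belong to 20 genes of the region that are neither members nor small RNA genes, of which 4 were tested. At an unadjusted p under 0.05, 2 of the 4 were higher (11.7% of all genes), and DESeq2 called 1 of the 20 higher (5.05%). In the 529.6 kb from the end of *Mirg* to *Dio3*, none of the 6 plus strand genes passed the filter.

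**Figure D2:**
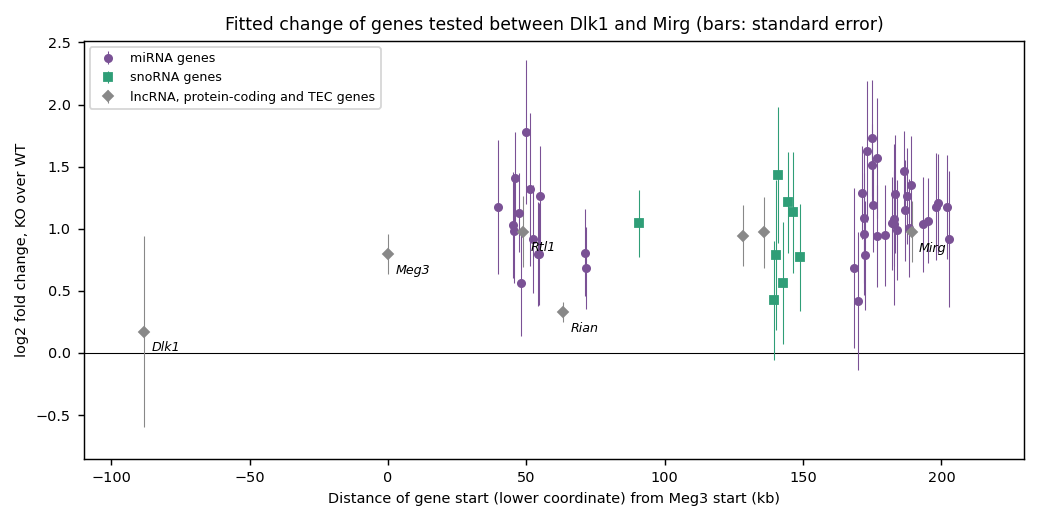
Fitted log2 fold change (KO over WT, with its standard error) of each gene tested from Dlk1 to Mirg, against the distance of its lower coordinate from the start of Meg3 in kb. Every point is above 0, the miRNA genes range from 0.42 to 1.78, Rian lies at 0.33, and Dlk1, upstream, has an error bar that spans 0.

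Of the 23 snoRNA genes of the *Dlk1-Dio3* region, 12 lie inside annotated exons of *Rian* and all 12 were listed at 0, as were 10 of the 15 miRNA genes inside exons of the members. Outside such exons only 2 of 11 snoRNA and 2 of 52 miRNA genes were at 0. The zeros thus went with exon overlap and are no measure of expression. The other 9 snoRNA genes had a count, all with the higher mean in KO. The 8 that passed the filter, 3 of them at its level in all 4 WT libraries, were higher in the fit, partly through that filter, with a median log2 fold change of 0.91. None passed in edgeR, 4 were higher at an unadjusted p under 0.05 (11.7% of all genes) and 1 by DESeq2 (5.05%). Of 111 snoRNA genes tested elsewhere, 103 were higher (92.8%), with a median of 0.80. Their sum was 2.80 ± 1.35 CPM in WT and 5.17 ± 1.01 CPM in KO, and the genotypes overlapped (exact permutation p = 0.0571). Of 208 snoRNA genes inside *Snhg14*, 62 had no count in any library. Of the 146 with a count, 131 had the higher mean CPM in KO and 15 the lower. The filter kept 41, only 6 of them at its level in all 4 WT libraries, so their direction was partly set by it. Their fitted log2 fold changes were 0.19 to 1.90, and none passed in edgeR (22 at an unadjusted p under 0.05, 2 by DESeq2, against 11.7% and 5.05% of all genes). These counts have the same limit and support no difference on their own. The *Snhg14* snoRNA sum was 11.5, 18.3, 10.9 and 4.89 CPM in WT and 19.98, 20.7, 25.1 and 29.8 CPM in KO. The genotypes did not overlap (11.4 ± 5.48 against 23.9 ± 4.53 CPM, exact permutation p = 0.0286), and without WT 32M and KO 12M the difference was 8.39 in place of 12.5 CPM (p = 0.1). The copies in these arrays are nearly identical, so the split of reads among them is uncertain, and the sum carries less of this error only where reads were not dropped.

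On the minus strand, from a little below the lower coordinate of *Ube3a* to the upper coordinate of *Snhg14*, lay 7 transcripts of the class TEC. They passed the filter in all 4 WT libraries, and all 7 were higher in KO in the fit, with a median log2 fold change of 0.71. Of 1715 TEC genes tested elsewhere 90.8% were higher, with a median of 0.68, so the 7 were near the share of their class. None passed in edgeR, 5 were higher at an unadjusted p under 0.05 and 4 by DESeq2, against 11.7% and 5.05% of all genes. The genotypes did not overlap for 2 of the 7 (28.6%), against 19.1% of TEC genes elsewhere. The sum over the 7 was 29.8, 50.3, 40.8 and 27.7 CPM in WT and 54.4, 58.9, 65.1 and 54.9 CPM in KO, with no overlap (exact permutation p = 0.0286). The 7 were picked by their position at *Snhg14*, on its strand, and *Snhg14* was chosen from this contrast. They are not treated as independent evidence of a difference. *Ube3a*, the ubiquitin ligase whose paternal copy *Snhg14* is known to silence in neurons, was at 370 ± 52.0 CPM in WT and 368 ± 16.7 CPM in KO (log2 fold change -0.007, SE 0.094, edgeR adjusted p = 0.975). The table does not separate the 2 parental copies, so the level of each is unknown.

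**Figure D3:**
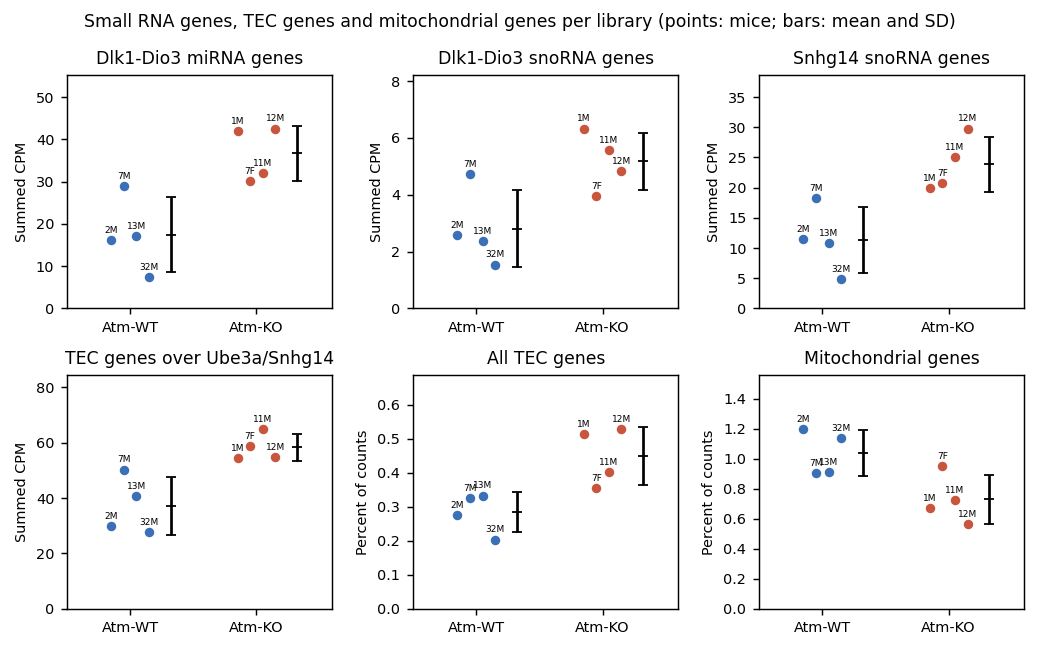
Summed CPM of the miRNA and snoRNA genes and of the TEC genes over Ube3a and Snhg14, and the percent of all counts on TEC and on mitochondrial genes, in each library, with mean and SD. KO lies wholly above WT in the miRNA sum, the Snhg14 snoRNA sum and both TEC measures, with WT 32M lowest in each, and the other 2 panels overlap.

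Neighbouring genes were compared with the edgeR quasi-likelihood test over all 22423 genes. Of 42 genes listed around the 4 regions, 38 were tested, 10 were higher and 28 lower in the fit, and the median log2 fold change was -0.13. Most were protein-coding, a class with a median of -0.06 in which 36.2% were higher, against 26.3% of the 38. None passed an adjusted p of 0.05 in edgeR, 1 was higher and 5 were lower at an unadjusted p under 0.05 (11.7% and 8.48% of all genes), and DESeq2 called 1 lower (2.44%). In 0 of the 38 genes was every KO library above WT, and in 2 (5.26%) every KO library was below, near the 5.12% of all genes.

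The 11 genes flanking the *Dlk1-Dio3* region (*Evl*, *Degs2*, *Yy1*, *Slc25a29*, *Slc25a47*, *Wars1*, *Wdr25*, *Begain*, *Dio3os*, *Ppp2r5c* and *Dync1h1*) had adjusted p-values of 0.245 to 0.896 in edgeR and their median difference was -0.14 on the log2 scale. At an unadjusted p under 0.05 there was 1, *Wars1*, a tryptophanyl-tRNA synthetase, at 77.1 ± 7.24 CPM in WT and 67.5 ± 6.78 CPM in KO. *Dio3os*, antisense to *Dio3*, had 0.415 ± 0.0989 and 0.337 ± 0.158 CPM. Around *Snhg14*, the paternally made *Snrpn*, an mRNA splicing protein whose gene shares upstream exons with *Snhg14*, held 178 ± 20.8 CPM in WT and 161 ± 6.52 CPM in KO (edgeR adjusted p = 0.335). *Ndn*, *Magel2* and *Mkrn3*, also paternal, had log2 fold changes of -0.15, 0.14 and 0.51. The GABA receptor subunits *Gabra5* and *Gabrg3* had -0.36 and -0.05, and *Herc2* and *Oca2* had 0.08 and -0.49. *Atp10a*, a phospholipid flippase, had the smallest p of the group, with 18.7 ± 4.48 CPM in WT and 12.4 ± 3.88 CPM in KO (log2 fold change -0.59, SE 0.22, edgeR adjusted p = 0.179). *Snurf* was listed at 0 in every library and *Peg12* was below the filter.

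Around *Peg13*, the potassium channel gene *Kcnk9* held 150, 165, 147 and 138 CPM in WT and 191, 156, 180 and 179 CPM in KO. Only KO 7F lay within the WT range. Its log2 fold change was 0.23 (SE 0.077), and it missed the threshold (edgeR adjusted p = 0.141). *Trappc9*, the host gene of *Peg13* and a subunit of a vesicle tethering complex, was at 107 ± 6.97 and 106 ± 5.73 CPM. *Chrac1*, *Ago2* and *Ptk2* had log2 fold changes of -0.11, -0.04 and 0.02.

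Around *Kcnq1ot1*, the 2 separated genes were *Cd81* and *Cdkn1c*. *Cd81*, a tetraspanin, held 308, 302, 293 and 338 CPM in WT and 239, 277, 270 and 231 CPM in KO, a log2 fold change of -0.29 (SE 0.077) that missed the threshold (edgeR adjusted p = 0.107). *Cdkn1c*, a cell cycle inhibitor made from the maternal copy, held 5.31 ± 0.503 CPM in WT and 4.05 ± 0.629 CPM in KO (log2 fold change -0.39, SE 0.16, edgeR adjusted p = 0.196). *Kcnq1*, the potassium channel gene over which *Kcnq1ot1* runs, was near the lower limit at 0.594 ± 0.193 and 0.418 ± 0.0693 CPM. *Nap1l4*, a histone chaperone, had a log2 fold change of -0.21 and an adjusted p of 0.179 in edgeR. *Slc22a18*, *Osbpl5*, *Tspan32* and *Tssc4* had -0.37, -0.16, -0.48 and -0.15, and *Trpm5*, *Dhcr7* and *Cars1* had 0.73, 0.01 and 0.21. *Phlda2* and *Ascl2*, also known to be imprinted in the placenta, were below the filter.

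Other imprinted genes fell on both sides of 0. Of 51 imprinted genes listed, some of them neighbours named above, 43 were tested, 15 were higher and 28 lower in the fit, and the median log2 fold change was -0.04. None passed in edgeR, with 3 higher and 6 lower at an unadjusted p under 0.05, against 11.7% and 8.48% of all genes. DESeq2 called 1 higher, against 5.05% of the genes it tested. The genotypes separated upwards in 1 (2.33%) and downwards in 2 (4.65%), against 6.47% and 5.12% of all genes. The gene that separated upwards was *Airn*, a long paternal RNA antisense to *Igf2r*. It held 13.4, 12.7, 13.3 and 8.78 CPM in WT and 17.7, 16.5, 14.3 and 19.5 CPM in KO. Its log2 fold change was 0.50 (SE 0.14), which missed the threshold (edgeR adjusted p = 0.118), and *Igf2r* itself was at 152 ± 25.5 and 160 ± 11.7 CPM. Of the separated lower genes, *Cdkn1c* is described above and *Igf2os* was below 1 CPM. The genes on the list made from the paternal copy had a median of -0.03 and those from the maternal copy of -0.07.

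Nuclear lncRNAs that are not imprinted in this way were compared next. Of 12 listed, 10 were higher (83.3%) and 2 lower in the fit, where 62.6% of all lncRNA genes tested were higher, and the median log2 fold change was 0.44 against 0.13. In 5 of the 12 (41.7%) every KO library was above WT, against 7.88% of lncRNA genes and 6.47% of all genes. This list was chosen with earlier results of these data known, so nothing is read from the difference between these shares. The tests of its genes below have the same limit. *Neat1*, the scaffold of paraspeckles, held 55.1, 57.1, 52.6 and 44.7 CPM in WT and 96.2, 79.2, 79.2 and 86.0 CPM in KO. It rose 1.63-fold and was the 1 gene of the list to pass in edgeR (log2 fold change 0.70, SE 0.090, adjusted p = 0.0371). DESeq2 called 4 of the 12 higher (5.05% of all genes it tested), and limma voom called 0. The edgeR call was lost without WT 2M, WT 7M, KO 1M or KO 11M. *Malat1*, a component of nuclear speckles, held 6526 ± 1970 CPM in WT and 10658 ± 2693 CPM in KO (edgeR adjusted p = 0.149). *Snhg11*, a neuronal RNA, held 385 ± 66.1 and 668 ± 130 CPM (edgeR adjusted p = 0.0931), and *Ftx*, from the X inactivation centre, held 32.9 ± 7.84 and 54.8 ± 9.24 CPM (edgeR adjusted p = 0.0942). The log2 fold changes of these 3 genes, 0.71, 0.79 and 0.74, stood beside the 0.80 of *Meg3* and the 0.73 of *Kcnq1ot1*. *Tug1*, long studied as a non-coding RNA but classed as protein-coding in this annotation, was at 168 ± 11.5 and 166 ± 3.44 CPM.

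**Figure D4:**
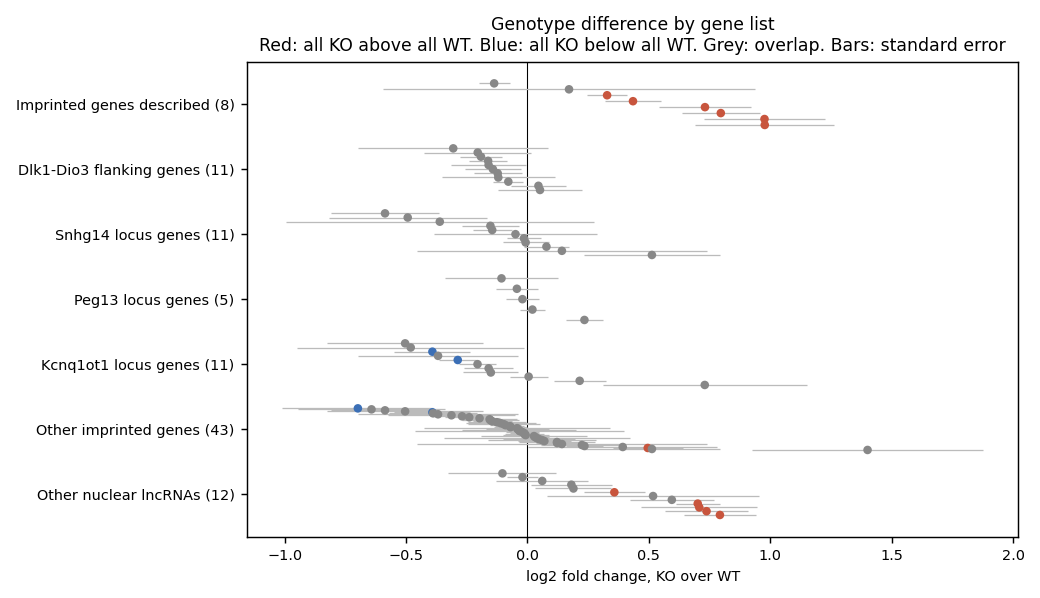
Fitted log2 fold change (KO over WT, bars: standard error) of every gene tested in each list, with the number of genes in brackets. Red points, where every KO library was above WT, are 6 of the 8 imprinted genes described and 5 of the 12 other nuclear lncRNAs, while neighbouring and other imprinted genes centre near 0, with Airn the red point among the latter.

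Measures of whole libraries moved with the same genes. The share of counts on TEC genes was 0.276%, 0.327%, 0.333% and 0.204% in WT and 0.513%, 0.354%, 0.402% and 0.529% in KO. The genotypes did not overlap (0.285 ± 0.0598% against 0.450 ± 0.0852%, exact permutation p = 0.0286). The order of the libraries resembled that of *Meg3*, *Mirg* and *Kcnq1ot1*, with WT 32M lowest and KO 1M and 12M the highest 2. Of 1723 TEC genes tested, 90.9% were higher in KO, with a median log2 fold change of 0.68, while the 3339 lncRNA genes had a median of 0.13 and the 15322 protein-coding genes -0.06. Mitochondrial genes took 1.04 ± 0.153% and 0.729 ± 0.163% (exact permutation p = 0.0857). The part of these differences between libraries in the values of the imprinted RNAs was not tested, and they cannot be told apart from genotype in 8 libraries.

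The genes whose pattern over the 8 libraries was most like that of each RNA were found among 15738 genes of at least 1 CPM. The measure was the root mean square difference of log2 CPM, taken after adding 0.5 CPM and centred on each gene's mean. The added 0.5 CPM shrinks the changes of genes near 1 CPM, so their likeness depends in part on it. For *Meg3* the nearest were 3 TEC genes, *Gm42913*, *Gm43593* and *Gm38147*, with differences of 0.079, 0.088 and 0.092 where the median gene had 0.51. *Gm42913* was low, at 0.573 ± 0.214 CPM in WT and 1.44 ± 0.409 CPM in KO. *Kcnq1ot1* ranked 65 for *Meg3*, ahead of *Mirg* at 1015, *Snhg14* at 1123 and *Rian* at 1823, although *Mirg* and *Rian* are neighbours of *Meg3* and *Kcnq1ot1* is on another chromosome. *Peg13* ranked 9109 and *Dlk1* 15709. For *Kcnq1ot1* the nearest genes were *Gm45263*, *Ftx* and *Gm48062*, with 0.062, 0.062 and 0.080, and *Meg3* ranked 130. For *Snhg14* they were *A430027C01Rik*, *Apex2* and *Nfxl1*, with 0.089, 0.091 and 0.092, and *Rian* ranked 88. The measure takes in the size of each gene's change, so the ranks partly restate the fold changes given above. These likenesses are over 8 libraries that differ in genotype and in TEC share, and are given as a description.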

How the data were processed

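Raw counts of 56691 genes in 8 cerebellar libraries were used. RNA was extracted from frozen tissue and sequenced by Novogene (Illumina HiSeq). The authors ran FastQC 0.11.9, STAR on GRCm39 and featureCounts with a GENCODE annotation, and deposited raw gene counts. The library kit and the strand and pair settings are not given in the sources used here. Between 67.3% and 73.3% of the counts from 1 to 50 were even, so a count may stand for a read rather than a fragment.

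Identifiers were matched without version to GENCODE vM39 (98.8% found). Genes were filtered with filterByExpr (22423 kept), scaled by TMM and fitted with edgeR 4.0.16 in R 4.3.3 (glmQLFit, glmQLFTest, genotype alone, Benjamini-Hochberg over all genes, threshold 0.05). CPM used the TMM library sizes. DESeq2 1.42.0 and limma 3.58.1 (voom) were alternatives. Sums and shares per library were compared by two-sided exact permutation tests, for which the spread is that between mice. The 9 genes and all lists were chosen with earlier results of these data known. Beyond the 9 genes, those named were the genes around the 4 regions (not all are reported here singly), separated genes of at least 1 CPM in the lists of other imprinted genes and other nuclear lncRNAs with the 3 largest changes each way, called genes and the 3 most alike. A few small RNA host transcripts and examples were named after their values were seen. Intervals of depth cover counting error only. No mice are paired by the labels.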

Additional observations from a re-analysis of the deposited data

Results flagged for a closer look

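A total of 3 values stood far from the other 3 of their group by Dixon's test at its 95% limit, among 126 groups of 4 libraries looked at, where chance alone would give about 6.3. *Dio3* was 0.147 CPM in KO 1M (12 counts) and 0.0516 to 0.0645 CPM in the other KO libraries. *Snhg14* was 390 CPM in KO 7F, the lowest of its group, with the others between 438 and 442 CPM. *Gabra5*, a GABA receptor subunit gene of the *Snhg14* region, was 10.97 CPM in WT 32M and 3.76 to 4.04 CPM in the other WT libraries.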

How the results depend on the processing

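A total of 15 alternatives were run for the fitted value of each of the 8 genes and for some counts of calls. These counts were those over all genes, genes around the 4 regions, other imprinted genes and other nuclear lncRNAs. Calls in the remaining lists and fold changes of other single genes were not followed. Of the 15 alternatives, the one leaving out WT 32M and KO 12M together was chosen after seeing the data. Leaving out 1 library at a time, the log2 fold change ranged from 0.66 to 0.90 for *Meg3*, 0.27 to 0.37 for *Rian*, 0.75 to 1.20 for *Mirg*, 0.83 to 1.27 for *Rtl1* (1.27 without WT 7M), -0.24 to 0.57 for *Dlk1*, 0.36 to 0.53 for *Snhg14*, -0.17 to -0.10 for *Peg13* and 0.55 to 0.84 for *Kcnq1ot1*. Without WT 32M and KO 12M the value of *Kcnq1ot1* was 0.47, its lowest in the 15 alternatives. Of all genes, edgeR called 4 at an adjusted p of 0.05, against 591 with no filter on low counts, 1552 by DESeq2, 24 without WT 32M and KO 12M, and 1 to 27 without 1 library; the cause was not tested. DESeq2 called 1 gene near the 4 regions and 1 other imprinted gene, where edgeR called 0. Of the other nuclear lncRNAs, 4 were called with no filter, 4 by DESeq2, 0 by limma voom and 0 to 1 without 1 library. Without WT 32M and KO 12M, the KO minus WT differences were 13.9 CPM for the *Dlk1-Dio3* miRNA sum, 8.39 CPM for the *Snhg14* snoRNA sum and 0.111 percentage points for the TEC share, each with p = 0.1 by the exact permutation test, the smallest that 3 against 3 can give. Without 1 library they ranged from 15.9 to 23.1 CPM, 10.4 to 14.8 CPM and 0.138 to 0.197 points, and p was 0.0571 by the exact permutation test without any 1 KO library for both sums and without any 1 WT library for the TEC share, while the groups still did not overlap. The *Dlk1-Dio3* snoRNA difference ranged from 1.95 to 3.005 CPM and passed only without WT 7M (3.005 CPM, exact permutation p = 0.0286). No paired analysis was possible because the labels of the 2 genotypes share only 1 mouse number. Counts under about 100 a library limit *Rtl1*, *Dio3* and single small RNA genes.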
